A study of Mus musculus with 10 samples.

Results

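The genes described here are 9 components of the Notch pathway: the receptors Notch1, Notch2 and Notch3, the ligands Jag1, Jag2 and Dll1, the receptor-modifying enzyme Lfng, and the target genes Hes1 and Hey1. They were picked by name, with no measured value in the rule, and are 9 of the 18586 rows of an RNA-seq table. Of the 9 genes, 7 passed the filter on low values and were tested, and Notch3 and Hey1 were too low to be tested in EY or N cells.

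Notch signalling is a contact between neighbouring cells. A ligand of the Jagged or Delta-like family on one cell binds a Notch receptor on the next, the receptor is cut first by an ADAM protease and then by gamma-secretase, and the freed intracellular part enters the nucleus, joins the DNA-binding protein RBPJ and switches on genes such as those of the HES and HEY repressor families. In stratified epithelium the pathway is known for its part in moving cells out of the basal layer and into differentiation, and Notch receptor genes are frequently mutated in head and neck squamous cell carcinoma.

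RNA was measured in 10 libraries of tongue epithelial cells, taken from mice 15 days after their transgenes were induced, sorted for nuclear green fluorescence and grown as primary cultures in medium with doxycycline, which keeps the transgenes on. All cells carried Krt14-CreERT, a recombinase driven by the keratin 14 promoter and so active in basal cells, together with LSL-rtTA and the reporter tetON_H2B-GFP. N cells carried no more than these, and EY cells also carried tetON_E6-E7, the oncogenes of a human papillomavirus, and tetON_YAP1S127A, a constitutively active form of the transcriptional co-activator YAP. EY was sampled in 6 libraries, a pair for each of the culture lines EY3960, EY4028 and EY4174, and N in 4 libraries that were all of the line N4172, so that genotype and line cannot be told apart. The libraries of a line are not stated to come from separate animals or cultures, and the p-values therefore measure only the spread between these libraries. The comparison of EY with N asks whether a Notch gene differs with the EY genotype, and the comparison among the EY lines asks how far such a difference holds from one culture to the next.

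Values are TPM, a transcript abundance set relative to gene length and to the library total, and how many reads support them is unknown. Yap1 was higher in all 6 EY libraries than in any N library, with 44.1 ± 9.54 TPM against 18.7 ± 1.79 TPM (SD, n = 6 and 4; log2 fold change 1.17, SE 0.14, adjusted p = 1.73e-04, and 0.99 without the line EY4174). The paper measured the transgene with primers named for human YAP1. Whether transgene reads enter the mouse Yap1 value, or only the cells' own gene is counted, is not stated. All 10 markers of stratified epithelium were expressed. Their summed level ranged from 4894 to 7877 TPM in EY and from 5956 to 6528 TPM in N. Summed markers of the suprabasal layers, of which 11 of 12 were in the table, ran from 135.2 to 1076 TPM in EY and from 166.4 to 527.3 TPM in N, or to 188.0 TPM without N replicate 4. Markers of fibroblasts were near 0 (at most 0.748 TPM in sum, 2 of 8 in the table), and those of mural cells came to 0.0771 to 0.630 TPM in EY and 6.01 to 7.45 TPM in N (4 of 9 in the table, mostly Acta2 in N). The endothelial markers summed to 18.8 to 34.0 TPM over all libraries (7 of 10, mostly Egfl7), and the immune markers to 29.4 to 71.9 TPM (3 of 10, mostly Cd68), while Pecam1, the defining marker of endothelium, had means of 0.216 TPM in EY and 0.196 TPM in N. N replicate 4 stood apart from the other N libraries in 864 of 11630 genes (7.43%), against 63 to 126 genes for each of the others, and values without it are given for Lfng, Cdkn1a and the suprabasal markers.

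No gene of the 7 tested was called between EY and N. A gene was called when its Benjamini-Hochberg adjusted p in limma was under 0.01 and its log2 fold change was over 1 in size, and 413 of the 11630 genes tested (3.55%) met both. With the adjusted p alone the count was again 0 of 7, beside 11.8% of all genes, and at an unadjusted p under 0.05 it was 2 of 7 (Hes1 and Jag1), beside 37.5% of all genes. The median log2 fold change of the 7 genes was -0.04, and that of all genes tested was 0.03. None of the 9 genes had all EY libraries on one side of all N libraries, which 20.4% of the tested genes did. Without N replicate 4 the count of the 7 genes called was again 0.

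Differences among the EY lines passed the test for some of these genes. Lfng was called between the EY lines (1 of 7, beside 5.12% of all genes), where a call required an adjusted p of limma's F test under 0.01 and 2 lines over 1 apart on the log2 scale. Hes1 and Lfng both passed at the adjusted p alone (2 of 7, beside 8.55% of all genes). The largest difference between 2 EY lines had a median of 0.64 (log2) over the 7 genes and of 0.35 over all genes tested. Against N, the 7 genes had median log2 fold changes of -0.36 in EY3960, 0.02 in EY4028 and 0.02 in EY4174, where all genes had 0.01, 0.09 and -0.01. In EY3960 the gene called was Lfng (1 of 7, beside 7.04% of all genes), and in EY4028 and EY4174 the count was 0 of 7 (beside 5.74% and 4.95% of all genes). These 3 comparisons share the 4 N libraries.

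**Figure D1:**
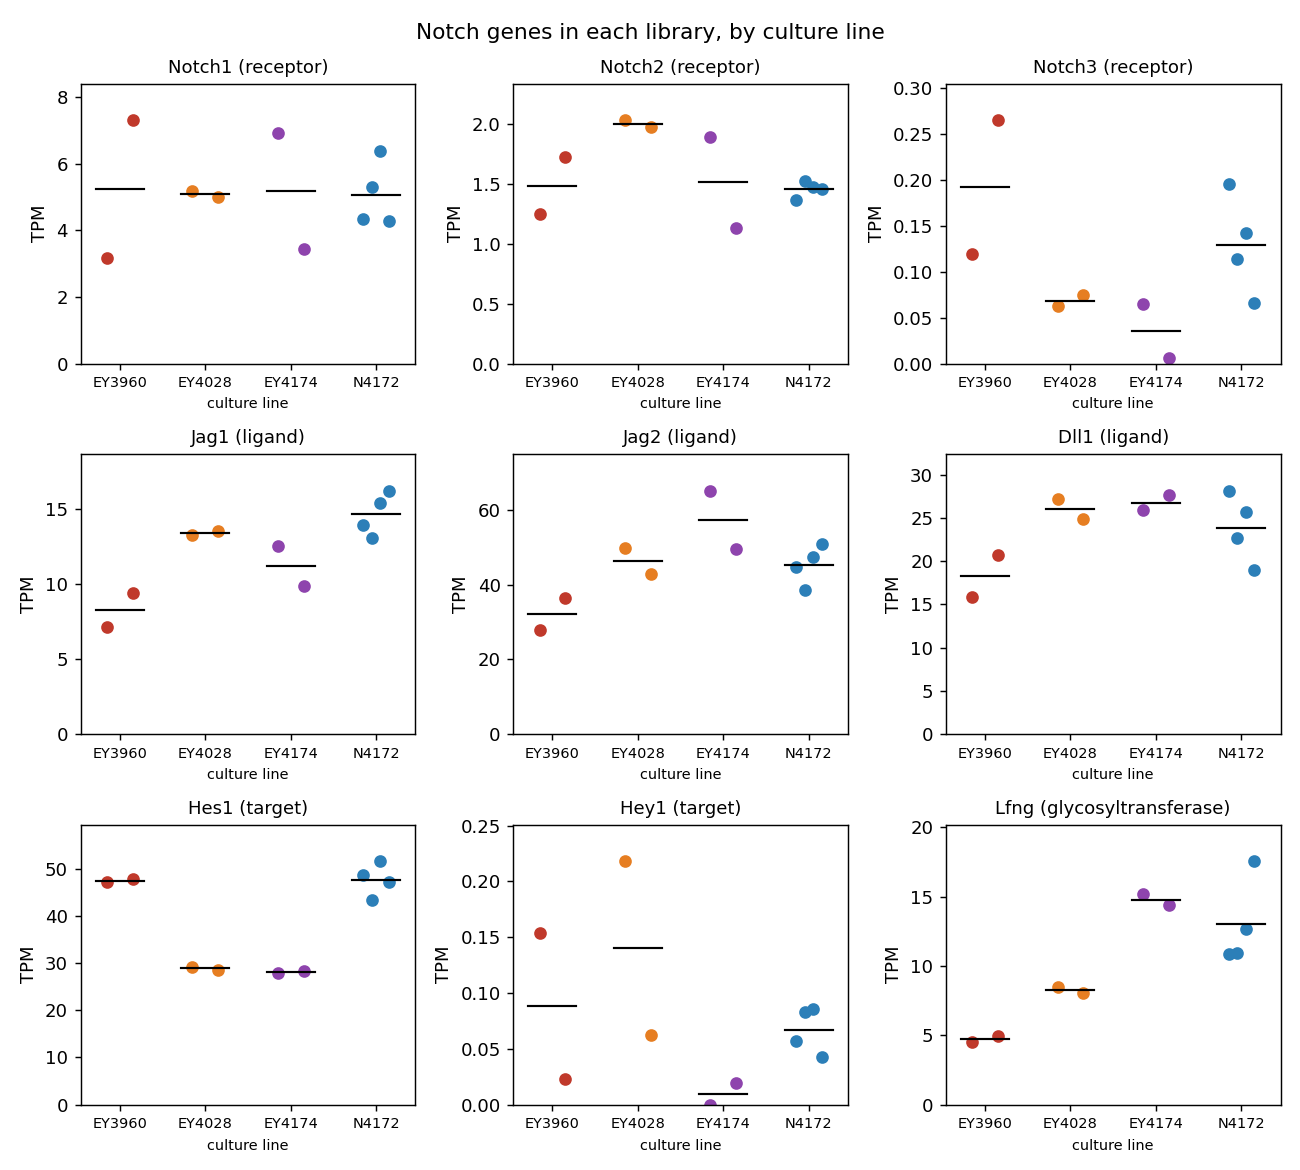
Level of each of the 9 Notch genes in TPM (y axis, from 0 and scaled for each gene) in every library, by culture line (x axis: 3 EY lines with 2 libraries each and N4172 with 4); points are libraries and bars are line means. Hes1 sits between 27.8 and 29.2 TPM in both libraries of EY4028 and EY4174 and above 43 TPM in EY3960 and N4172, Lfng climbs from EY3960 through EY4028 to EY4174, and Notch1 spreads widely within EY3960 and EY4174.

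Notch1, the main receptor of these cultures by level, had nearly the same mean in EY and N. It was measured at 3.18 and 7.31 TPM in EY3960, at 5.20 and 4.99 TPM in EY4028, and at 6.92 and 3.45 TPM in EY4174, with an EY median of 5.09 TPM. The N libraries had 4.35, 5.29, 6.37 and 4.29 TPM. The spread lay within lines rather than between them: the higher library of a line exceeded the lower by a factor of 2.30 in EY3960 and 2.01 in EY4174 but 1.04 in EY4028, and the EY libraries reached beyond the N range on both sides. The means were 5.17 ± 1.71 TPM in EY and 5.08 ± 0.979 TPM in N, and the log2 fold change on log2(TPM + 1) was -0.01 (SE 0.20, 95% interval -0.46 to 0.43, adjusted p = 0.975). The 3 line means were 5.24, 5.09 and 5.18 TPM, with 0.05 (log2) as the largest difference between lines (F test, adjusted p = 0.992), and 1.64% of the tested genes differed less between the lines.

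The 250 bases upstream of the Notch1 start site are shown because they hold the letters GGAATG, the core bound by TEAD proteins, through which YAP reaches DNA. The sequence is RefSeq's, from the mouse build GRCm38.p6 at chr2:26503823-26504072, minus strand, 5′ to 3′ toward the start site. The capitals mark GGAATG read on the opposite strand, at 233 to 228 and 216 to 211 bases upstream.
Notch1: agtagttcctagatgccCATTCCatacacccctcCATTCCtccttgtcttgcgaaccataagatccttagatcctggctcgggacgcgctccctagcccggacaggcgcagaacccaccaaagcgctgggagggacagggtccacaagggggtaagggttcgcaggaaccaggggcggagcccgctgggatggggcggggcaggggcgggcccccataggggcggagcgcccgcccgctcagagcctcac
Of the 9 genes, 7 had entries in the promoter table, all but Hes1 and Hey1, with 8 promoters in all. GGAATG stood on either strand in 1 of the 8, beside 4153 of 32851 mouse promoters of this length (12.6%). A match of letters is a description and not a binding site, and none of these libraries measured binding.

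Notch2, the second receptor, was expressed at a low level. It had 1.25 and 1.72 TPM in EY3960, 2.03 and 1.98 TPM in EY4028 and 1.89 and 1.14 TPM in EY4174, while the N libraries had 1.36, 1.53, 1.47 and 1.46 TPM. Every EY library lay outside the narrow N range, 4 above it and 2 below. The log2 fold change was 0.11 (SE 0.13, 95% interval -0.19 to 0.40, adjusted p = 0.602), with means of 1.67 ± 0.384 TPM in EY and 1.46 ± 0.0688 TPM in N, and the F test between the EY lines gave an adjusted p of 0.393. Notch3, a receptor best known from the cells around blood vessels, was at 0.120 and 0.265 TPM in EY3960, 0.0625 and 0.0749 TPM in EY4028 and 0.0647 and 0.00629 TPM in EY4174. In N it was at 0.196, 0.114, 0.142 and 0.0661 TPM. All 10 libraries were far under the 1 TPM of the filter, and the ranges of the groups overlapped.

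Receptor composition was alike in both genotypes as far as the ranges show. Notch1 made up 73.95% of the summed receptor TPM in EY (range 69.9% to 78.6%) and 75.9% in N (73.6% to 79.8%). Notch2 made up 24.7% and 22.2%, and Notch3 1.38% and 1.97%. The receptor sum was 6.94 ± 2.03 TPM in EY and 6.66 ± 1.02 TPM in N.

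Jag2 was the highest ligand and, by the mean over all EY libraries, the highest of the 9 genes, although Hes1 exceeded it in both EY3960 libraries. It had 27.8 and 36.4 TPM in EY3960, 49.8 and 42.9 TPM in EY4028 and 65.2 and 49.6 TPM in EY4174, beside 44.7, 38.7, 47.3 and 50.9 TPM in N. Both EY3960 libraries were below all N libraries, and 1 EY4174 library was above them. Over all EY libraries no difference from N was detected (45.3 ± 12.8 against 45.4 ± 5.14 TPM; log2 fold change -0.04, SE 0.19, 95% interval -0.47 to 0.38, adjusted p = 0.891). Between lines the largest difference was 0.82 (log2, EY4174 over EY3960, SE 0.17), with an adjusted p of 0.0197 that missed the threshold of 0.01.

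Jag1, the other Jagged ligand and itself a known target of several pathways, was lower in EY on average without passing the threshold. It was measured at 7.16 and 9.44 TPM in EY3960, 13.2 and 13.6 TPM in EY4028 and 12.5 and 9.87 TPM in EY4174. In N it was at 14.0, 13.1, 15.4 and 16.2 TPM. The libraries of EY3960 and EY4174 (4 of 6) lay below every N library, and those of EY4028 lay within the N range. The means were 10.97 ± 2.55 TPM and 14.7 ± 1.42 TPM, with a log2 fold change of -0.41 (SE 0.16, 95% interval -0.76 to -0.06, unadjusted p = 0.0240, adjusted p = 0.0794). By line the log2 fold change against N was -0.76 in EY3960 (SE 0.14, adjusted p = 0.00218), -0.12 in EY4028 (adjusted p = 0.567) and -0.36 in EY4174 (adjusted p = 0.0729). The EY3960 value passed on p and fell short of the required fold, its adjusted p was 0.0401 without EY replicate 1, and the F test between lines gave an adjusted p of 0.0438.

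Dll1, the Delta-like ligand expressed here, had similar means in both genotypes. It had 15.8 and 20.7 TPM in EY3960, 27.2 and 24.9 TPM in EY4028 and 25.9 and 27.6 TPM in EY4174, and 28.1, 22.7, 25.6 and 19.0 TPM in N. Of the EY libraries, 5 lay within the N range and 1, from EY3960, lay below it. The log2 fold change was -0.02 (SE 0.16, 95% interval -0.37 to 0.33, adjusted p = 0.945), with means of 23.7 ± 4.57 and 23.9 ± 3.95 TPM. The largest difference between lines was 0.53 (log2, EY4174 over EY3960, SE 0.18), with an F-test adjusted p of 0.0826.

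Added up, the 3 ligands came to 79.9 ± 18.7 TPM in EY and 83.9 ± 6.37 TPM in N. The EY range, from 50.8 to 103.6 TPM, took in the whole N range of 74.5 to 88.3 TPM, and the line means were 58.7 TPM in EY3960, 85.8 TPM in EY4028 and 95.3 TPM in EY4174. The share of Jag1 in the sum was 13.8% ± 1.91 in EY (11.3% to 16.7%) and 17.5% ± 1.13 in N (16.1% to 18.9%), a description that was not tested. The ratio of Jag2 to Jag1 was 4.15 ± 0.793 in EY, with line means of 3.87, 3.46 and 5.11, and 3.09 ± 0.101 in N, and the ranges of the groups (3.16 to 5.20 and 2.96 to 3.20) overlapped at the lowest EY library. Jag2 held 56.2% of the sum in EY and 54.0% in N, and Dll1 held 29.95% and 28.5%.

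**Figure D2:**
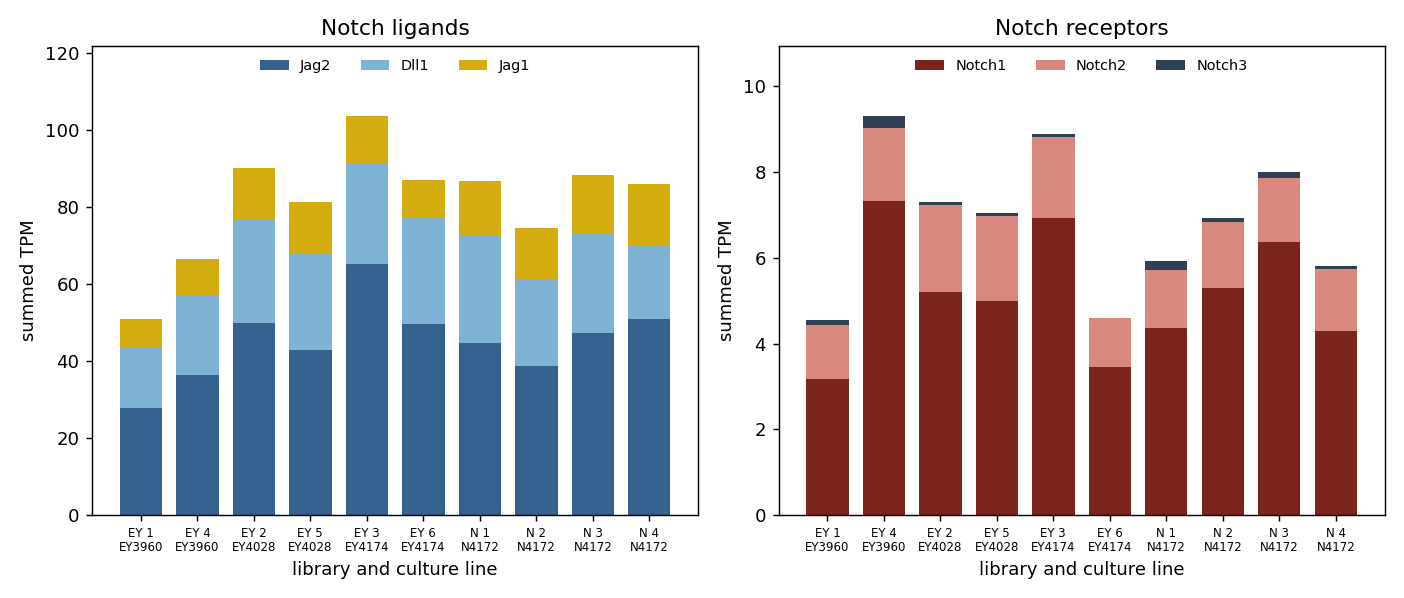
Summed TPM (y axis, from 0) of the ligands Jag2, Dll1 and Jag1 (left) and of the receptors Notch1, Notch2 and Notch3 (right) in each of the 10 libraries (x axis, with culture line); each stacked bar is 1 library with no error. The ligand bars of EY3960 are the shortest, at 50.8 and 66.6 TPM, and Notch3 is a sliver of every receptor bar.

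Lfng, or Lunatic fringe, encodes a glycosyltransferase of the Golgi that adds sugar to the Notch receptors and so tunes which ligands they answer to, in general favouring Delta-like over Jagged ligands. It was the one gene of the 9 called between the EY lines. The 250 bases upstream of its start site are shown because they hold the letters TGGGAA, the core bound by RBPJ, the DNA-binding partner of Notch. The sequence is RefSeq's, build GRCm38.p6, chr5:140607091-140607340, plus strand, 5′ to 3′ toward the start site, with capitals at TGGGAA on this strand (108 to 103 bases upstream) and on the opposite strand (135 to 130 bases upstream).
Lfng: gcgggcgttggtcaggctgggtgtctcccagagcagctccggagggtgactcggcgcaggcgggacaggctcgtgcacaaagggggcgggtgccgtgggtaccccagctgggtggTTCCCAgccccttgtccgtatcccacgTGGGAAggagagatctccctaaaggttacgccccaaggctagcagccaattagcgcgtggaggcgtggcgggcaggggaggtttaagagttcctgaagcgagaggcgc
The target genes Hes1 and Hey1 had no promoter entry and were not searched. TGGGAA stood on either strand in 1 of the 8 promoters, beside 7094 of all 32851 (21.6%). It shares the letters GGAA with GGAATG, so that matches of these cores can overlap, which they did not in the sequences printed.

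Lfng was measured at 4.54 and 4.94 TPM in EY3960, 8.50 and 8.07 TPM in EY4028 and 15.2 and 14.4 TPM in EY4174. The N libraries had 10.9, 10.96, 12.7 and 17.6 TPM. The libraries of a line were close to each other (higher over lower 1.09, 1.05 and 1.05), the lines did not overlap, and the 4 libraries of EY3960 and EY4028 lay below all N libraries while both of EY4174 lay within the N range. The difference between EY4174 and EY3960 was 1.46 (log2, SE 0.20, 95% interval 1.03 to 1.89), and the F test over the 3 lines gave an adjusted p of 0.00140. Among the tested genes, 96.1% differed less between the lines.

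Against N the lines gave unlike values for Lfng. The log2 fold change was -1.26 in EY3960 (SE 0.17, adjusted p = 2.62e-04, lower in 2 of 2 libraries), -0.57 in EY4028 (adjusted p = 0.0271) and 0.20 in EY4174 (95% interval -0.18 to 0.57, adjusted p = 0.414). Over all EY libraries it was -0.55 (SE 0.31, 95% interval -1.24 to 0.15, adjusted p = 0.234), with 9.27 ± 4.57 TPM in EY and 13.02 ± 3.14 TPM in N. N replicate 4 was the highest N library, and without it N had 11.5 ± 1.03 TPM, the differences were -1.12 in EY3960 (adjusted p = 1.56e-05), -0.43 in EY4028 (adjusted p = 0.00944), 0.34 in EY4174 (adjusted p = 0.0276) and -0.40 overall (adjusted p = 0.428). The call between the lines rested on both libraries of the outer lines: the F-test adjusted p was 0.0138 without EY replicate 1, 0.0101 without EY replicate 4 (both EY3960), 0.0135 without EY replicate 3 and 0.0127 without EY replicate 6 (both EY4174), with largest differences of 1.41 to 1.51 (log2). The summed suprabasal markers, mostly Sprr1b and Sprr1a, took the opposite order over the lines. Their means were 1037 TPM in EY3960, 354.2 TPM in EY4028 and 138.0 TPM in EY4174. As single genes, 9 of the 11 measured took this order. Of the 8 tested, 4 were called between lines, beside 5.12% of all genes. Sprr1b and Sprr1a were not among the 4 (F test, adjusted p = 0.0199 and 0.260). The summed markers of stratified epithelium, mostly Krt14 and Krt5, took the same order as Lfng, from 5015 through 6333 to 7478 TPM, as did 3 of the 10 genes taken singly, and Yap1 was highest in EY4174 (56.0 TPM, beside 39.4 and 36.8 TPM). Their part in the Lfng difference was not tested, and in bulk cultures fewer cells of a type and less RNA per cell cannot be told apart.

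Hes1, the transcriptional repressor most often read as an output of Notch, separated the EY lines into 2 levels. It was measured at 47.1 and 47.9 TPM in EY3960, 29.2 and 28.5 TPM in EY4028 and 27.8 and 28.2 TPM in EY4174. In N it was at 48.7, 43.3, 51.6 and 47.2 TPM. Both EY3960 libraries lay within the N range and the other 4 EY libraries lay below all N libraries, with the libraries of each line within a factor of 1.03. Against N the log2 fold change was -0.70 in EY4028 (SE 0.09, 95% interval -0.89 to -0.52, adjusted p = 1.62e-04) and -0.74 in EY4174 (SE 0.09, 95% interval -0.93 to -0.56, adjusted p = 1.32e-04), both short of the required fold, and -0.0038 in EY3960 (95% interval -0.19 to 0.18, adjusted p = 0.978).

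The difference of Hes1 between the lines passed on p, with an F-test adjusted p of 6.16e-04, and missed the threshold without EY replicate 4 (0.0112, difference 0.73). EY3960 exceeded EY4028 by 0.70 (log2, SE 0.10) and EY4174 by 0.74 (SE 0.10), and EY4028 and EY4174 were 0.04 apart (95% interval -0.18 to 0.26). Over all EY libraries the mean was 34.8 ± 9.85 TPM, beside 47.7 ± 3.47 TPM in N, and the log2 fold change was -0.48 (SE 0.17, 95% interval -0.86 to -0.11, unadjusted p = 0.0152, adjusted p = 0.0576). Without the line EY3960 it was -0.72 with an adjusted p of 1.71e-04, and over the alternatives the adjusted p ran from that value to 0.682. The immune marker Cd68 was also highest in EY3960 among the lines (70.3, 36.9 and 29.4 TPM, beside 51.1 TPM in N), whereas the defining leukocyte marker Ptprc had means of 0.141 TPM in EY and 0.0918 TPM in N.

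Hey1, the HEY-family repressor, was at or near 0 throughout. It was listed at 0.154 and 0.0232 TPM in EY3960, 0.218 and 0.0623 TPM in EY4028, and 0 and 0.0198 TPM in EY4174. The N libraries had 0.0573, 0.0833, 0.0859 and 0.0426 TPM. The EY libraries lay on both sides of the N range, 2 above and 3 below, and no test was made.

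**Figure D3:**
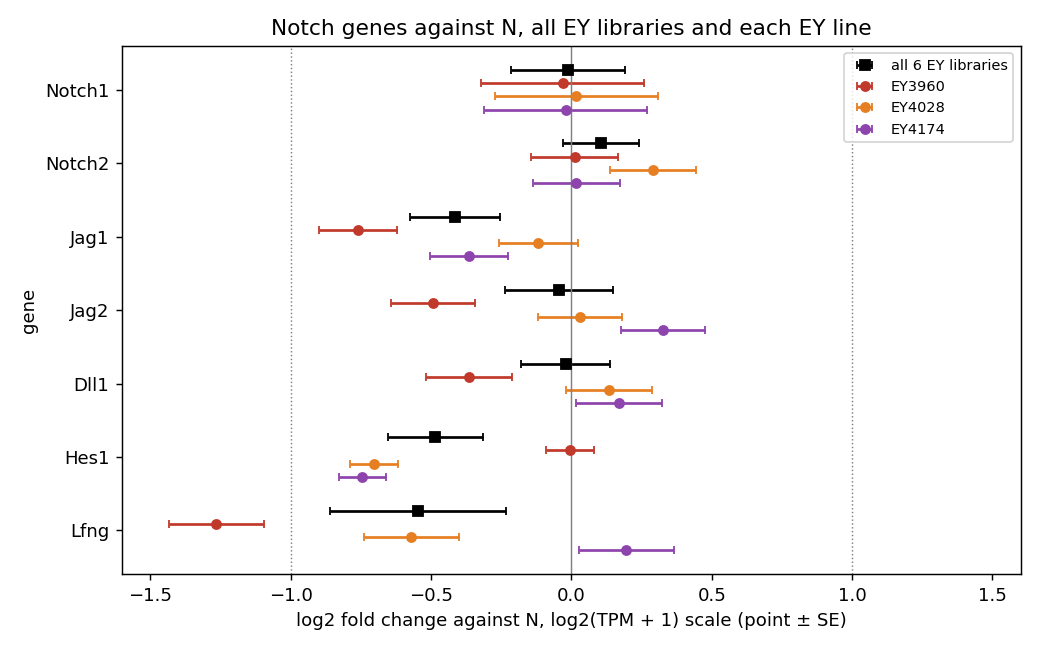
Log2 fold change against N on the log2(TPM + 1) scale (x axis; points with SE from limma) of the 7 tested genes (y axis) for all 6 EY libraries (black squares) and for each EY line (coloured circles); dotted lines mark the fold required for a call. Lfng in EY3960, at -1.26, is the one point past a dotted line, and Hes1 splits into EY3960 at 0 and the other lines at -0.70 and -0.74.

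Ranked by TPM, the order in EY was Jag2, Hes1, Dll1, Jag1, Lfng, Notch1, Notch2, Notch3 and Hey1. The ranges over the EY libraries overlapped between Jag2 and Hes1, Jag1 and Lfng, Lfng and Notch1, and Notch3 and Hey1. Compared within each of the 6 EY libraries, Jag2 exceeded Hes1 in 4 and Jag1 exceeded Lfng in 4. Lfng exceeded Notch1 in 5, and Notch3 exceeded Hey1 in 3. The libraries with Hes1 above Jag2 were both of EY3960. The order was not tested. In N, Hes1 and Jag2 changed places, with means of 47.7 and 45.4 TPM and overlapping ranges, and the rest of the order was the same. The ligands were thus far more abundant than the receptors, with a ratio of summed ligand to summed receptor TPM of 12.2 ± 3.82 in EY and 12.8 ± 2.22 in N. Hes1 exceeded 84.3% of all rows in EY and 88.1% in N, whereas Notch1 exceeded 56.8% and 57.1%.

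Correlated over the 10 libraries on the log2 scale, the closest pair among the 7 genes was Jag2 and Lfng (Pearson r = 0.82), followed by Jag1 and Lfng (0.70), Notch1 and Notch2 (0.67), Jag2 and Dll1 (0.67) and Jag1 and Jag2 (0.64). Hes1 ran against Jag2 (r = -0.51) and Dll1 (-0.49). These values are descriptions over 10 libraries from 4 lines, which share line and library scaling. Among 7618 genes with a mean of at least 5 TPM, those most like each of the 7 were Polr3a (0.967) and Atxn3 (0.912) for Notch1, Ubr2 (0.949) and Usp31 (0.945) for Notch2, Cdcp1 (0.978) and App (0.973) for Jag1, and Dazap1 (0.970) and Igf2bp2 (0.965) for Jag2. For Dll1 they were Polr1a (0.968) and Otud1 (0.951), for Hes1 Clp1 (0.981) and Hilpda (0.975), and for Lfng Tmed3 (0.967) and Mrgbp (0.964).

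A wider list of 77 genes of the pathway, written from general knowledge, had 66 genes in the table and 53 tested. Outside the 7, there were 46 tested genes, of which 0 were called higher and 1 lower in EY (beside 3.55% of all genes in either direction) and 3 differed between the EY lines (beside 5.12%). The median log2 fold change of these 46 genes was 0.06, beside 0.03 for all genes. The receptor-cleaving enzymes (10 tested) and the nuclear complex and corepressors (17 tested) had 0 called by limma in either direction between EY and N. Their counts at an unadjusted p under 0.05 were 2 and 5, beside 37.5% of all genes. Genes of endocytosis and turnover (10 tested) had 1 called lower and 5 at an unadjusted p under 0.05. The ligands (4 tested, among them Jag1, Jag2 and Dll1 of the 7) had 0 called and 1 at that p, which was Jag1.

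The gene called lower in EY was Fbxw7, the substrate-binding part of a ubiquitin ligase that marks the Notch intracellular domain, among other proteins, for destruction. It had 2.33 and 2.58 TPM in EY3960, 3.01 and 3.50 TPM in EY4028 and 2.93 and 3.01 TPM in EY4174, and 6.84, 7.37, 8.38 and 5.05 TPM in N. All EY libraries were below all N libraries, and the F test between the EY lines gave an adjusted p of 0.474. The log2 fold change was -1.01 (SE 0.14, adjusted p = 3.48e-04), just past the required fold, and it lay between -0.92 and -0.99 without EY replicate 1 or 4, N replicate 2 or 3, or the line EY3960. With line as a random block the adjusted p was 0.0244 and the call was lost. It was also lost with each line as 1 mean, a fit that leaves 1 N value.

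The 3 genes that differed between the EY lines were Itch, Dtx3 and Ivl. Itch, a ubiquitin ligase that acts on Notch, fell from 35.3 TPM in EY3960 through 23.7 TPM in EY4028 to 15.9 TPM in EY4174, beside 19.1 TPM in N (largest difference 1.11, adjusted p = 8.90e-04). It missed the call without EY replicate 4 (adjusted p = 0.0103) and without EY replicate 6 (difference 0.93). Ivl, the cornified envelope protein involucrin, was at 22.1, 13.5 and 7.64 TPM in the same order, beside 10.7 TPM in N (difference 1.42, adjusted p = 2.65e-05). Dtx3, of the Deltex family, was at 0.139, 2.36 and 1.94 TPM, beside 3.21 TPM in N (difference 1.56, adjusted p = 0.00581), a call lost without any 1 of the 6 EY libraries or without N replicate 1 or 2 (adjusted p up to 0.0572). Ivl and Itch thus took the order opposite to that of Lfng over the lines.

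The 5 other genes of the list with the largest fold changes were not called between EY and N over all EY libraries, or between the EY lines. Hdac1, a histone deacetylase of corepressor complexes, passed on p with a log2 fold change of 0.48 (65.4 ± 3.70 against 46.9 ± 5.64 TPM, higher in 6 of 6 libraries, adjusted p = 0.00177). Aph1c, a subunit of gamma-secretase, had -0.94 (adjusted p = 0.0108, and past both thresholds without EY replicate 5 at -1.03). In EY3960 against N, Aph1c passed both thresholds (-1.21, adjusted p = 0.00796), at a mean of 0.271 TPM in that line. Its value is uncertain because the near-identical Aph1b may share its reads. Aph1b went the other way, at 1.35 TPM in EY and 0.717 TPM in N (log2 fold change 0.43, adjusted p = 0.101). Dtx4 had -0.81 (adjusted p = 0.0164). Its N level was 4.09 TPM in N replicate 4 and 1.48 to 1.73 TPM in the other N libraries, beside 0.416 to 1.17 TPM in EY. Cdkn1a, the cell cycle inhibitor p21, had 0.48 (adjusted p = 0.0952; 0.21 without N replicate 4, adjusted p = 0.0644), and Eogt, which also glycosylates Notch, had -0.46 (adjusted p = 0.0241). Rbpj itself had 10.04 to 14.5 TPM in EY, each library above the 4 N libraries at 9.17 to 9.96 TPM, and was not called (log2 fold change 0.33, adjusted p = 0.0419).

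**Figure D4:**
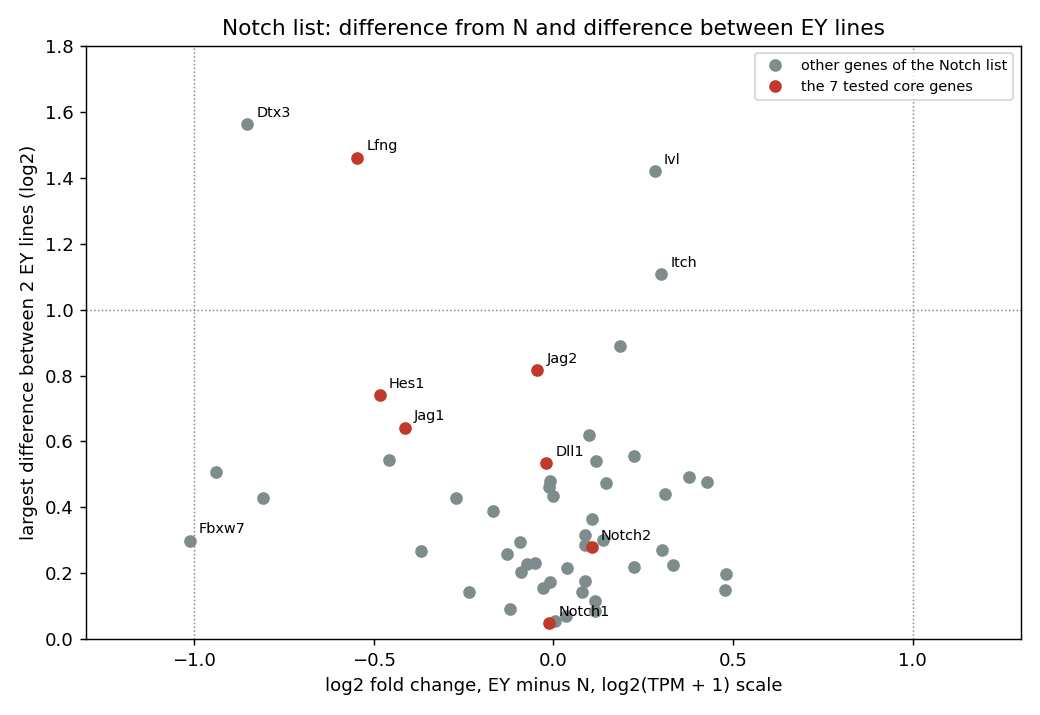
Log2 fold change of EY over N (x axis) against the largest difference between 2 EY lines (y axis, log2), both on the log2(TPM + 1) scale, for the 53 tested genes of the wider list; red points are the 7 tested core genes, grey points the others, and dotted lines the required sizes. Lfng lies above the horizontal line with Dtx3, Ivl and Itch, Fbxw7 lies just past the left vertical line, and Notch1 and Notch2 lie low near the centre.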

How the data were processed

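Bulk RNA-seq of poly(A) RNA was analysed in 6 EY and 4 N libraries, grouped by genotype label. The deposited values are TPM, scaled by the authors within each library. Per the submitters' processing notes, reads were processed with STAR 2.7.9, SAMtools 1.7, HTSeq 0.13.5, DESeq2 1.34.0 and the build GRCm39. How the TPM were made from these steps is not stated. The study's methods describe a Kallisto quantification against a human transcriptome with the highest transcript kept per gene, and whether it gave this table is not stated. Such a choice could change levels of genes with several transcripts or close paralogs. Depth is unknown, so no counting interval or detection floor is given.

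The 11630 genes (of 18586) that reached 1 TPM in 4 libraries or more were tested with limma 3.58.1 (R 4.3.3; trend and robust options) on log2(TPM + 1), a scale that understates changes of low genes, with Benjamini-Hochberg adjustment over all genes. Calls used the study's thresholds, that is, adjusted p below 0.01 with a log2 fold change above 1 in size. A model with 4 line means gave each EY line against N and the F test over the EY lines. Every adjusted p is from these fits, or from the alternative fit named beside it. The script was checked on simulated data, with independent libraries and no line differences other than the changes put in. That check cannot show how often differences between lines give calls. Python 3.11.15, numpy 2.4.6, pandas 2.3.3 and matplotlib 3.10.9 served for summaries and plots.

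The 9 genes, the pathway list and the marker lists were chosen with earlier results of these data known. A further gene of the pathway list is not reported here. Named genes were the 9, the genes of the wider list called between EY and N or between EY lines, the 5 others with the largest fold change, Yap1, and for each tested gene the 2 with the highest Pearson correlation over the libraries. Rbpj, Aph1b, Acta2, Egfl7, Cd68, Krt5, Krt14, Sprr1a, Sprr1b, Pecam1 and Ptprc were named outside this rule, after their values were seen. Marker lists were stratified epithelium, suprabasal epithelium, endothelium, mural cells, fibroblasts and immune cells. Alternatives were other pseudocounts, filters and scalings, limma without its options, line or sample number as a block, line means, and leaving out each library or EY line. Promoters and their motif matches are from RefSeq (GRCm38.p6), and coordinates were not converted to another build.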

Additional observations from a re-analysis of the deposited data

Results flagged for a closer look

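For Hes1 the effect against N differed between the EY lines, with an adjusted p of 6.16e-04 in limma's F test (0.0112 without EY replicate 4). Both EY4028 and EY4174 were lower than N, by log2 differences of -0.70 and -0.74, and EY3960 had -0.0038. For Lfng the effect against N also differed between the EY lines, with an adjusted p of 0.00140, from -1.26 in EY3960 through -0.57 in EY4028 to 0.20 in EY4174. No single library of the 9 genes stood apart from the rest of its group by Dixon's criterion in EY or N. The closest was N replicate 4 for Lfng, with a gap of 0.727 of the range, where 0.829 was the limit. About 1 group in 20 would be marked by chance if its libraries were independent. The EY libraries are pairs of a line, and a library close to its partner cannot stand apart. The criterion could therefore mark little in EY.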

How the results depend on the processing

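Limits: all 4 N libraries are of 1 line, each EY line has 2 libraries, and low genes are compressed by the pseudocount. With each line as 1 mean, 2 genes were called between EY and N in place of 413, and 0 of the 7 Notch genes. Depth is unknown, and levels near 0 (Notch3, Hey1) were not tested. The count of Notch genes called between EY and N stayed at 0 under every alternative run.

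Genes called between EY and N numbered 216 with at least 1 TPM required in every library, 203 with line as a random block and 341 to 445 without 1 library. The sample numbers of the labels were checked as pairs over all genes and did not pair the libraries (correlations of deviations from -0.148 to 0.102), and with the replicate block 221 genes and 0 Notch genes were called. Under this replicate block the log2 fold change against N was 0.0412 for Notch1 and 0.0721 for Jag2 over all EY libraries, 0.0214 (EY3960) and 0.0322 (EY4174) for Notch1, and 0.0474 for Hes1 in EY3960. Between EY lines, 350 genes were called with at least 1 TPM in every library. Notch genes called between lines numbered 0 to 1 without 1 library (0 without EY replicate 1, 3, 4 or 6) and 2 with the adjusted p alone, a setting added after seeing the data.

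The differences that changed sign were within 0.05 of 0 (log2) as reported. Quantile normalization gave -0.11 (EY4028) and 0.0250 (EY4174) for Notch1 and -0.0617 (EY4028) for Jag2. Rescaling without mitochondrial transcripts gave -0.0282 (EY3960) and -0.000682 (EY4174) for Notch2. Centring on the median gave -0.0760 (EY4028) and 0.00225 (EY4174) for Notch1, -0.00755 (EY3960) for Notch2 and -0.0621 (EY4028) for Jag2. Without the line EY3960, EY against N was 0.18 for Jag2 and 0.15 for Dll1. Without 1 library, EY against N ranged from -0.11 to 0.0919 for Notch1, -0.16 to 0.0824 for Jag2 and -0.12 to 0.0863 for Dll1. By line the ranges for Notch1 were -0.53 to 0.47 (EY3960), -0.0450 to 0.12 (EY4028) and -0.44 to 0.40 (EY4174). For Notch2 they were -0.13 to 0.15 (EY3960) and -0.20 to 0.24 (EY4174), for Jag2 -0.0743 to 0.14 (EY4028), and for Hes1 -0.0488 to 0.0341 (EY3960). None of these passed a threshold, and the cause of the changes of sign was not tested.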
